A study of Homo sapiens with 18 samples.

Results

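The genes described here code for the proteins of the mitochondrial ribosome and were taken from the count table by symbol alone: MRPL or MRPS, a number and, for some, a letter from A to C. This rule used no expression value and picked 78 of the 28277 genes of the table, 49 named MRPL for the large subunit and 29 named MRPS for the small subunit. They were followed by RNA-seq in OVCAR3-KRAB, an ovarian cancer cell line (OVCAR3) that stably carries dCas9-KRAB, a dead Cas9 fused to a repressor domain, in every group. Monoclonal lines had been made with sgCtl, a control guide against Gal4, or with sgXIST7 or sgXIST9, guides against separate stretches of the promoter of the long non-coding RNA XIST, and XIST knockdown (KD) clones had been selected for XIST loss. Cells of each guide were kept in normoxia (no treatment) or for 24 h in a chamber with 1% oxygen (hypoxia), with 3 replicates in each of the 6 groups and 18 libraries in all. Since each guide was carried by clonal cells, guide and clone cannot be told apart. The labels do not say whether the 3 replicates of a guide came from 1 clone or from several. Below, clone stands for the cells of 1 guide.

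The mitochondrial ribosome translates the messages of the mitochondrial genome, which code for core subunits of the respiratory chain and of ATP synthase. Its RNAs are made inside the organelle, but all its proteins come from nuclear genes, are translated in the cytosol and are imported. Part of them have counterparts in the bacterial ribosome and the rest are found only in mitochondria, and the regulators NRF-1, GABP, YY1, MYC and the PGC-1 coactivators are known to act on nuclear genes of mitochondrial function. Mitochondrially encoded RNAs were not analysed here.

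The libraries held from 11794375 to 24906936 counts, so that a detection limit of 3 counts stood at 0.130 to 0.266 CPM (counts normalised to library size, with TMM factors). XIST was at 329, 867 and 242 CPM in sgCtl in normoxia, at 0.216, 0.222 and 0.0436 CPM in sgXIST7 and at 29.01, 53.6 and 52.4 CPM in sgXIST9, so its level matched the guides. Of 10 hypoxia genes, 9 were called higher in hypoxia in each clone, among them CA9, with log2 fold changes of 5.33, 6.55 and 6.99 in sgCtl, sgXIST7 and sgXIST9. Among 8 markers chosen for an epithelial ovarian cancer line, EPCAM (156 to 251 CPM) and KRT18 (129 to 251 CPM) were abundant and KRT8 stood at 4.07 to 43.3 CPM. PAX8 reached 5.94 CPM at most, and MUC16, WFDC2, KRT7 and CDH1 stayed at or under 0.188 CPM. Only 4 of the 8 passed the filter on low counts, and the abundant ones, EPCAM and KRT18, are epithelial markers. The check therefore did not bear out the ovarian lineage, and the line is named from the sample labels. Of 5 stromal markers, 3 passed the filter on low counts, and their summed level was 1.16 to 3.63 CPM in sgCtl and 33.5 to 308 CPM in the KD clones, nearly all of it COL1A2, while LUM and PDGFRB stayed at or under 0.532 CPM. The 3 endothelial markers were at or under 0.397 CPM. Of the 4 immune markers, CD3E, CD14 and PTPRC were at or under 0.298 CPM, and CD68, a lysosomal protein abundant in macrophages, was at 10.8 to 55.8 CPM. CD68 fell in hypoxia in sgCtl (-0.75) and sgXIST9 (-1.35), with -0.53 in sgXIST7 (adjusted p = 0.11), and the summed immune level in normoxia was 24.1 to 29.3 CPM in sgCtl, 25.1 to 33.4 CPM in sgXIST7 and 37.3 to 55.9 CPM in sgXIST9. COL1A2 thus moved with the KD comparisons, and CD68 with hypoxia in sgCtl and sgXIST9, but neither did so alone. The stromal sum in sgXIST7 was 69.9 to 122 CPM in normoxia and 127 to 308 CPM in hypoxia, and the immune sum in normoxia also differed between sgXIST9 and sgCtl. The part of COL1A2 and CD68 in the results below was not tested. The hypoxia replicate 3 libraries deviated from their group means by 0.356 to 0.509 (root mean square over genes, log2 scale) against 0.204 to 0.373 in the other 15 libraries, and their deviations correlated with each other across genes at r = 0.38 to 0.57, while the other pairs of hypoxia libraries of different clones ran from r = -0.57 to 0.52. The main counts are given with and without these libraries.

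Of the 78 genes, 77 passed the filter on low counts. MRPS18B did not, with 0 to 9 counts in each library, and its exons are also listed on alternate contigs of chromosome 6 of that locus. The exons of MRPL23, MRPL45, MRPS36 and MRPS12 are listed on alternate contigs as well, which leaves the counts of all 5 uncertain, and the part of these copies in their levels was not tested. In sgCtl in normoxia the median member stood at 34.2 CPM per kilobase of exon, with quartiles of 21.8 and 52.1. The highest levels per kilobase were those of MRPL51 (156 ± 20.4, SD, n = 3), MRPS21 (98.7 ± 10.1), MRPL3, a protein near the peptidyl transferase centre (92.3 ± 5.37), and MRPL20, a protein that joins the large subunit early in its assembly (86.3 ± 6.76). MRPL51 lay above MRPS21 beyond the spread of both, while MRPS21, MRPL3 and MRPL20 each differed from the next gene in this order by less than the larger SD of the pair. At the low end, MRPL45, which helps to hold the ribosome at the inner membrane, reached 3.45 ± 0.412, MRPS24 1.42 ± 0.347 and MRPS18B 0.0265 ± 0.00956 CPM per kilobase. The row of MRPS24 is overlapped on the same strand by that of URGCP-MRPS24, so its level is uncertain too. With each row taken as the span from its first to its last listed exon, those of 29 members are overlapped, 13 on the same strand and 19 on the opposite strand. These counts overstate true overlap, since a row listed at several places on a chromosome spans all that lies between. That of the microRNA MIR4315-1, for example, spans MRPL10, MRPL27 and MRPS23. The part of shared reads in their levels was not tested. MRPS36, at 4.51 ± 1.52, carries a ribosomal symbol but is now known as a subunit of the 2-oxoglutarate dehydrogenase complex. Exon lengths cover all listed isoforms, so a gene with long alternative exons, such as MRPL42 (15665 bases), is understated on this scale.

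To see how oxygen affected these genes, hypoxia was compared with normoxia within each clone, in separate sets of libraries. Transcripts of the mitochondrial ribosome were mostly lower in hypoxia in all 3 clones. In sgCtl, 36 of 77 members fell at an adjusted p under 0.05 (edgeR) where 25.2% of the 14938 genes tested fell, and 2 rose where 26.1% of all genes rose. In sgXIST7, 54 members fell and 2 rose, against 29.5% and 29.5% of all genes. In sgXIST9, 54 fell and 1 rose, against 24.8% and 30.5%. The median log2 fold change over the members was -0.34 in sgCtl, -0.51 in sgXIST7 and -0.52 in sgXIST9, beside 0.02, 0.01 and 0.09 over all genes tested. Without the hypoxia replicate 3 libraries, 38, 51 and 51 members fell, where 28.5%, 30.5% and 26.8% of the 15278 genes tested then did, and 5, 2 and 1 rose. Most changes were moderate: an adjusted p under 0.01 with a change of more than 1 on the log2 scale was met by 5 members in sgCtl, 15 in sgXIST7 and 10 in sgXIST9, shares below those of all genes (19.7%, 27.3% and 23.3%).

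The calls of the members were then set side by side across the clones. All 3 clones called 33 members lower, and 57 of 77 had a negative log2 fold change in each clone. A further 15 fell in both KD clones but did not pass the test in sgCtl, and 15 members were called lower in no clone. Without the hypoxia replicate 3 libraries, 30 fell in all 3 clones, 28 of them among the 33, with 14 in the KD clones but not sgCtl and 16 in no clone. Across the 77 members, the log2 fold changes of the clones correlated at Pearson's r = 0.69 between sgCtl and sgXIST7, 0.74 between sgCtl and sgXIST9 and 0.73 between the KD clones, a description over genes measured in the same libraries. The plot of the hypoxia response of each member shows these log2 fold changes. The share of all genes that met the same joint criteria, and the correlation over all genes, were not computed. The joint counts and correlations are therefore not read as particular to the members.

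**Figure D1:**
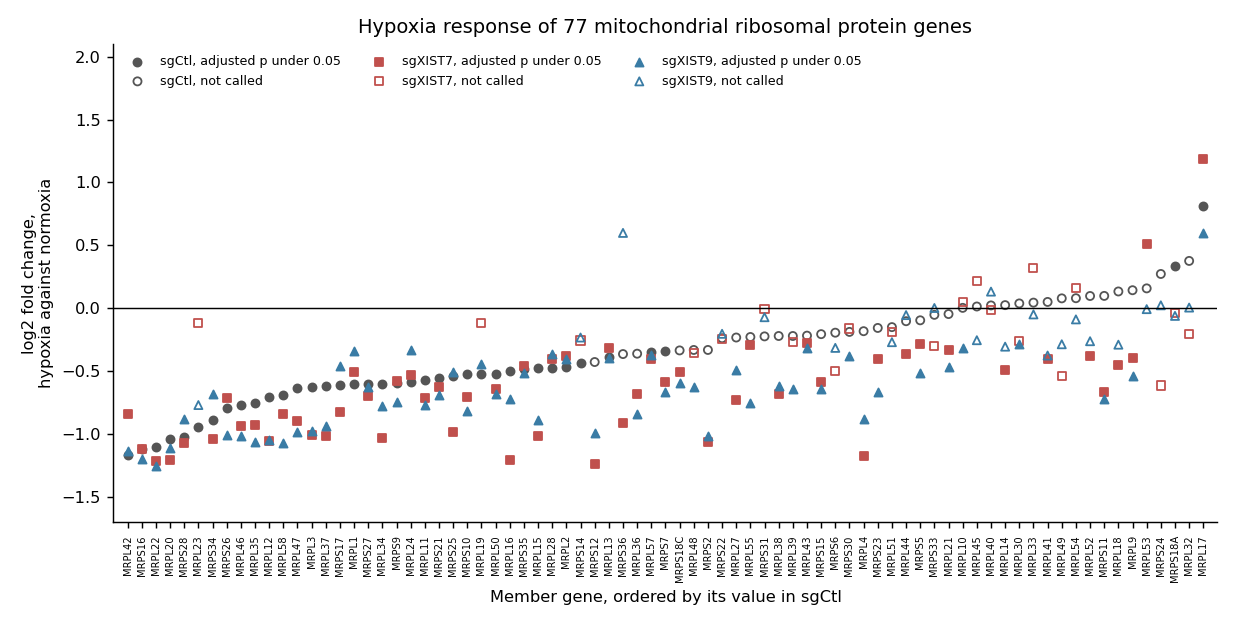
The log2 fold change in hypoxia against normoxia (vertical axis) is shown for each of the 77 genes tested (horizontal axis, ordered by sgCtl), with circles for sgCtl, squares for sgXIST7 and triangles for sgXIST9, filled where the adjusted p was under 0.05. Most points lie below 0, and MRPL17, at the right end, lies above 0 in all 3 clones.

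The largest fall in sgCtl was that of MRPL42, a protein of the large subunit without a bacterial counterpart. Its level was 178, 162 and 174 CPM in the 3 normoxia libraries of sgCtl and 70.2, 67.5 and 92.2 CPM in the hypoxia libraries, a log2 fold change of -1.16 ± 0.16 (SE, adjusted p = 1.4e-05, edgeR). In sgXIST7 it went from 132, 97.9 and 124 to 55.6, 65.7 and 76.2 CPM, and in sgXIST9 from 178, 162 and 166 to 73.4, 64.03 and 93.5 CPM. No hypoxia library of a clone reached its normoxia libraries, and the log2 fold changes in the KD clones were -0.84 and -1.13 (adjusted p = 2.1e-04 and 1.3e-05). MRPS16, a small subunit protein with a bacterial counterpart whose loss causes mitochondrial disease, was at 147, 134 and 152 CPM in normoxia and 61.1, 60.4 and 77.97 CPM in hypoxia in sgCtl. Its fall was alike in the clones, with log2 fold changes of -1.12 ± 0.12, -1.12 ± 0.12 and -1.19 ± 0.12 (SE). MRPL22, which lines the tunnel through which the new protein leaves the ribosome, went from 34.5, 28.4 and 32.3 to 13.4, 14.4 and 16.7 CPM in sgCtl, and fell by 1.10, 1.21 and 1.25 on the log2 scale in sgCtl, sgXIST7 and sgXIST9. All 9 of these tests kept their call in each of the 26 alternative fits.

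MRPL17, a large subunit protein with a bacterial counterpart, went the other way. It stood at 73.9, 62.03 and 81.4 CPM in normoxia and at 114, 108 and 159.8 CPM in hypoxia in sgCtl. In sgXIST7 the values were 76.6, 62.3 and 72.8 CPM and 147, 156 and 179 CPM, and in sgXIST9 93.4, 92.6 and 88.8 CPM and 134, 127 and 156 CPM. Each hypoxia library lay above every normoxia library, and MRPL17 was the 1 member called higher in all 3 clones, with log2 fold changes of 0.81 ± 0.15, 1.18 ± 0.15 and 0.60 ± 0.15 (SE, adjusted p = 2.2e-04, 3.1e-06 and 0.0021, edgeR). Besides it, MRPL53 rose in sgXIST7 (0.51 ± 0.14, adjusted p = 0.0047) and MRPS18A in sgCtl (0.34 ± 0.11, adjusted p = 0.019), the latter call being lost without sgCtl hypoxia replicate 2 (adjusted p = 0.088).

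**Figure D2:**
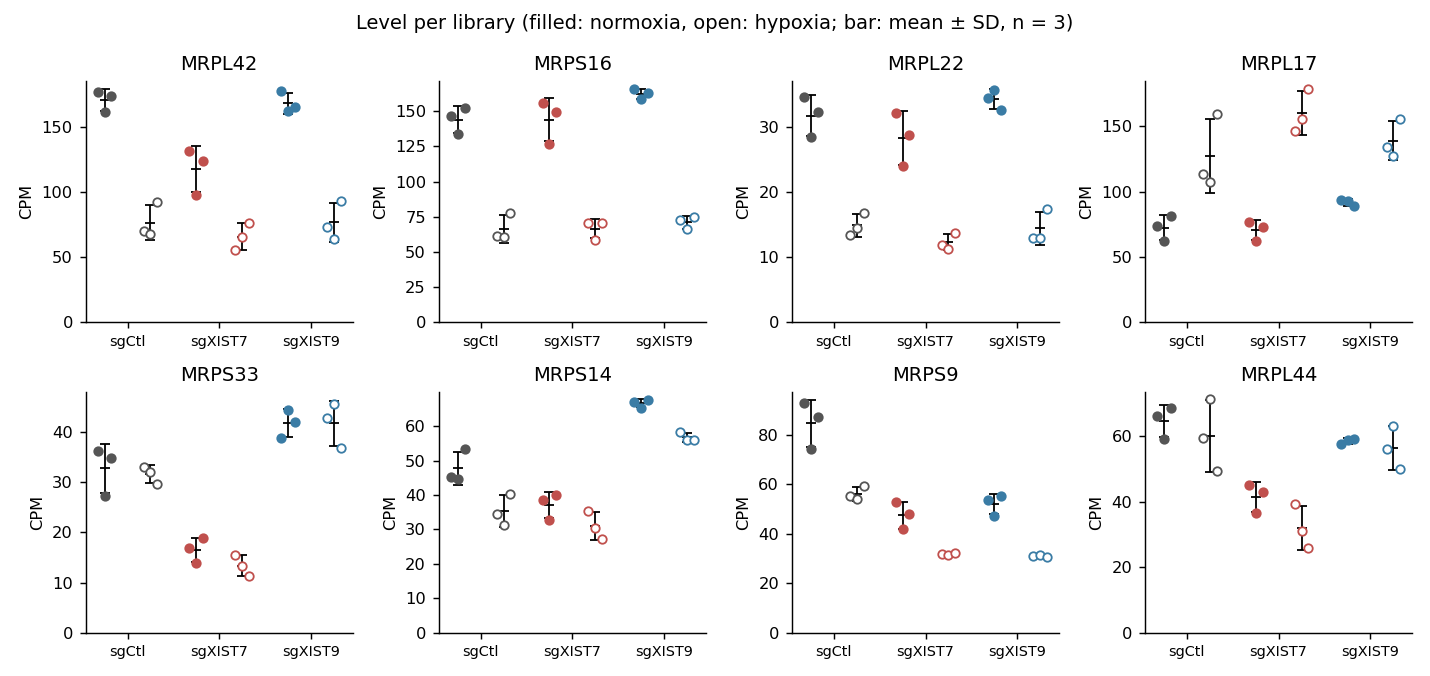
Levels in CPM (vertical axes, from 0) are shown for 8 members in each library, by clone (horizontal axes), with filled points for normoxia, open points for hypoxia and bars for the mean ± SD of 3 libraries. MRPL42, MRPS16 and MRPL22 are lower and MRPL17 is higher in hypoxia in each clone. In normoxia, MRPS33 and MRPL44 are lower in sgXIST7 than in sgCtl, MRPS9 is lower in both KD clones than in sgCtl, and MRPS14 is lower in sgXIST7 than in sgXIST9.

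To set these members beside the sequence in front of their genes, the 200 bases before the start site are shown for MRPL42 and MRPL17, the called members with the lowest and the highest log2 fold change in sgCtl, and for MRPL12 and MRPL44, chosen for their roles. The sequences come from RefSeq (GRCh38.p14) and read 5′ to 3′ on the strand of the gene. Capitals mark matches, on either strand, to the cores of NRF-1 (GCATGCGC), of ETS factors such as GABP (CCGGAAG) and of YY1 (AAGATGG), to the E-box (CACGTG) and to the core of the hypoxia response element (ACGTG, which every E-box contains).
MRPL42: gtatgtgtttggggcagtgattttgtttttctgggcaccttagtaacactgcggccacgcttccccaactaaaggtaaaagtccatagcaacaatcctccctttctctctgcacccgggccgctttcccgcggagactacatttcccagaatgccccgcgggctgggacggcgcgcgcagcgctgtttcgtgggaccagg
MRPL17: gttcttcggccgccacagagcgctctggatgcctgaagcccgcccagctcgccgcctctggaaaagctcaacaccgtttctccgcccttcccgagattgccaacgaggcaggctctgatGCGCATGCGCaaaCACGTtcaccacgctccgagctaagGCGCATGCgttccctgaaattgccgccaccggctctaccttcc
MRPL12: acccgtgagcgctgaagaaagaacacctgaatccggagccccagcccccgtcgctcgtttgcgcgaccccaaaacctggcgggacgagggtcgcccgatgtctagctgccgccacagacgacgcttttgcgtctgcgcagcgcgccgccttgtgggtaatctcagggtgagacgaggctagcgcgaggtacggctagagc
MRPL44: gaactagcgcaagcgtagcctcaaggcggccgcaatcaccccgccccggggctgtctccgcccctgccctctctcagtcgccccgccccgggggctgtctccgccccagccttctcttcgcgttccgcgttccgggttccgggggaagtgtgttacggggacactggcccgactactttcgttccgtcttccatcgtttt
They lie at chr12:93467314-93467513 (plus strand), chr11:6683341-6683540 (minus strand), chr17:81703167-81703366 (plus strand) and chr2:223957263-223957462 (plus strand). MRPL17 held 3 matches to the NRF-1 core, a pair of which overlap, and 1 match to ACGTG at positions -68 to -64 before the start, while these letters were not found in the other 3 windows. Over the 250 bases before the start, CCGGAAG was found in 23 of 69 members with a RefSeq promoter (33.3%) and in 10.8% of the 18286 promoters of genes in the table. GCATGCGC was found in 6 members (8.70%) against 3.45% of promoters, AAGATGG in 7 (10.1%) against 3.49%, CACGTG in 7 (10.1%) against 7.33%, and ACGTG in 20 (29.0%) against 20.2%. These matches describe the letters and were not tested for binding.

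By role, the falls spread over both subunits. Of the large subunit proteins with a bacterial counterpart, 17, 23 and 24 of 30 fell in sgCtl, sgXIST7 and sgXIST9, with median log2 fold changes of -0.47, -0.50 and -0.51. Of the large subunit proteins found only in mitochondria, 6, 11 and 11 of 21 fell, with medians of -0.19, -0.37 and -0.37. In the small subunit, 8, 13 and 13 of 16 members with a bacterial counterpart fell (medians -0.38, -0.62 and -0.68), and 5, 6 and 6 of 9 tested members without one (medians -0.48, -0.46 and -0.51). Without the hypoxia replicate 3 libraries these counts were 16, 21 and 23, then 7, 11 and 9, then 8, 13 and 12, and 7, 6 and 7. These classes were not tested against each other. MRPS36, which belongs to none of them, fell in sgXIST7 (-0.91) and had log2 fold changes of -0.36 in sgCtl and 0.60 in sgXIST9, neither called.

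Among the proteins of the stalk, which recruits translation factors, MRPL12 was at 47.8, 47.5 and 42.1 CPM in normoxia and 25.1, 35.9 and 22.9 CPM in hypoxia in sgCtl and fell in each clone (-0.70 ± 0.17, -1.06 ± 0.17 and -1.05 ± 0.17 on the log2 scale, SE). MRPL11, at the base of the stalk, also fell in each clone (log2 fold changes -0.57, -0.71 and -0.77). MRPL10, to which MRPL12 is bound, had log2 fold changes of 0.00 and 0.05 in sgCtl and sgXIST7, neither called, and fell in sgXIST9 (-0.32, adjusted p = 0.0098). MRPL3 went from 166, 148 and 159 to 104, 106 and 97.02 CPM in sgCtl and fell in each clone (-0.62, -1.01 and -0.97). MRPL58, a peptidyl-tRNA hydrolase built into the large subunit that frees stalled chains, fell by 0.69, 0.84 and 1.07 on the log2 scale. MRPL28, with a bacterial counterpart, fell in each clone too (-0.47, -0.40 and -0.36), MRPL41, without one, in sgXIST7 (-0.40, against 0.05 and -0.37), and MRPL33 passed the test in no clone (0.05, 0.32 and -0.05). MRPL23 had -0.94 ± 0.36 in sgCtl, a call lost without sgCtl normoxia replicate 1 (adjusted p = 0.25). MRPS30, which sits in the large subunit despite its name, fell in sgXIST9 (-0.38, against -0.19 and -0.16). MRPL20 fell by 1.04, 1.21 and 1.11, though its row is overlapped on the other strand by MRPL20-AS1, and reads of the pair cannot be told apart where the counting did not use strand.

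MRPS12, which lies at the decoding site, did not pass the test in sgCtl, where its level was 49.98, 44.6 and 58.8 CPM in normoxia and 39.6, 50.3 and 23.7 CPM in hypoxia, with the hypoxia replicate 3 library lowest and replicate 2 within the normoxia range. It fell in sgXIST7 (-1.24 ± 0.24, adjusted p = 3.4e-04) and in sgXIST9 (-0.99 ± 0.24, adjusted p = 0.0022). MRPS2 followed the same pattern of calls, with log2 fold changes of -0.33 in sgCtl (adjusted p = 0.11), -1.06 and -1.01. MRPS7, in the head of the small subunit, fell in each clone (-0.34, -0.58 and -0.66), with the call in sgCtl lost without sgCtl normoxia replicate 3 (adjusted p = 0.087), and MRPS27, a pentatricopeptide repeat protein, did as well (-0.60, -0.70 and -0.62). MRPS28, a small subunit protein with a bacterial counterpart (-1.02, -1.07 and -0.88), and MRPS34, without one (-0.89, -1.04 and -0.68), fell in each clone. MRPS22 passed the test in no clone (-0.24, -0.24 and -0.20). The related proteins MRPS18A and MRPS18C, which sit in the large and the small subunit, differed in calls: MRPS18C fell in the KD clones (-0.50 and -0.60, against -0.33 in sgCtl, adjusted p = 0.15), and MRPS18A had log2 fold changes of -0.04 and -0.06 there.

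Summed over its 51 genes, the large subunit stood at 3068 ± 228 CPM in normoxia and 2501 ± 126 CPM in hypoxia in sgCtl (SD, n = 3), at 2835 ± 305 and 2116 ± 133 CPM in sgXIST7, and at 3277 ± 26.4 and 2307 ± 95.8 CPM in sgXIST9. The 26 genes of the small subunit, MRPS18B included, stood at 1629 ± 122 and 1183 ± 39.7 CPM in sgCtl, 1556 ± 159 and 981 ± 81.6 CPM in sgXIST7, and 1781 ± 8.45 and 1144 ± 41.5 CPM in sgXIST9. Neither sum overlapped between normoxia and hypoxia in any clone. The sum of all members changed in hypoxia by -21.6%, -29.5% and -31.6% in sgCtl, sgXIST7 and sgXIST9 with TMM factors. Scaled to total counts alone, the changes were -25.5%, -40.0% and -34.6%, and with upper-quartile factors -19.8%, -28.4% and -27.4%. The size of the fall thus depended on the normalization, most in sgXIST7. In bulk RNA, fewer cells with a transcript and less of it per cell cannot be told apart.

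**Figure D3:**
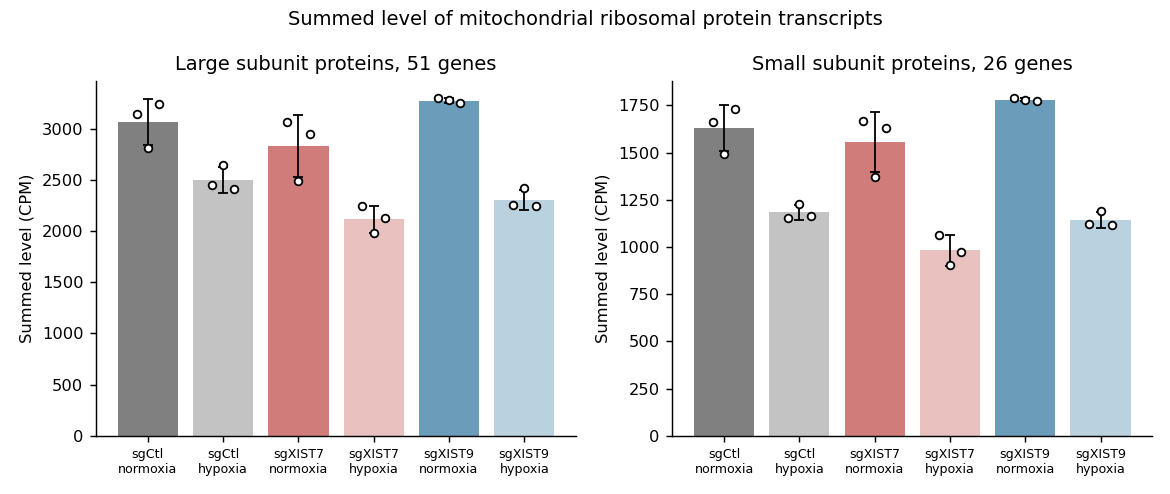
Bars show the mean summed level in CPM (vertical axes, from 0) of the large and small subunit genes in each of the 6 groups (horizontal axes), with the SD as error bars and 1 point per library, n = 3. In each clone the hypoxia libraries lie below the normoxia libraries for both subunits.

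Genes that build and run the mitochondrial ribosome were read in the same fits. Of 27 genes for assembly and rRNA modification, 12, 16 and 18 fell and 0, 1 and 0 rose in sgCtl, sgXIST7 and sgXIST9, with medians of -0.34, -0.52 and -0.48. DDX28, an RNA helicase of large subunit assembly, went from 37.2, 32.5 and 37.4 to 15.2, 15.8 and 14.1 CPM in sgCtl and fell by 1.25, 1.43 and 1.39 on the log2 scale. RPUSD4, a pseudouridine synthase, fell in each clone (-0.98, -1.498 and -1.23). Of 15 translation factors, 10, 11 and 11 fell and 2 rose in each clone, with the elongation factors GFM1 (-0.996, -1.07 and -1.44) and TSFM (-0.96, -1.12 and -1.01) among the falls and the release factor MTRF1L among the rises (0.80, 0.92 and 0.78). Of 20 genes for mitochondrial aminoacyl-tRNA synthesis, 13 fell in each clone and 1 rose, PARS2, for proline (1.07, 1.11 and 1.05). SARS2, the serine enzyme, whose gene lies head to head with MRPS12 and overlaps its row on the other strand, fell in each clone (-0.96, -0.77 and -1.05).

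The 5 mitochondrial ribosomal proteins with other symbols had 3, 3 and 3 members called lower: DAP3, PTCD3 and AURKAIP1, the last with log2 fold changes of -0.80, -1.14 and -1.18. GADD45GIP1 rose in sgCtl (0.45) and sgXIST7 (0.56). Of 9 genes that copy or transcribe mitochondrial DNA, 2, 3 and 3 fell, and POLG, the DNA polymerase, rose in each clone (0.97, 1.71 and 0.82). Of 78 protein genes of the cytosolic ribosome, 10, 4 and 8 fell and 3, 14 and 7 rose, with medians of -0.14, 0.14 and -0.03. These counts depended on the hypoxia replicate 3 libraries: without them, 36, 4 and 13 cytosolic genes fell and 3, 16 and 7 rose. The cytosolic medians were then -0.30, 0.14 and -0.11, beside -0.31, -0.50 and -0.55 over the mitochondrial members, so the 2 lists fell alike in sgCtl in that fit. The other lists moved less, with 15, 16 and 20 assembly genes, 10, 12 and 11 translation factors, 13, 13 and 14 synthetase genes and 1, 3 and 3 mitochondrial DNA genes lower without those libraries. Among 11 regulators, the PGC-1 coactivators PPARGC1B (-1.64, -3.36 and -2.57) and PPRC1 (-0.49, -1.77 and -1.20) fell in each clone, and MXI1, which competes with MYC for its partner MAX, rose in each (3.02, 4.77 and 4.07). GABPA rose (0.50, 0.76 and 0.51), NRF1 fell in sgXIST9 (-0.61) and had log2 fold changes of -0.29 and -0.21 in the other clones, and MYC and YY1 passed the test in none. Whether these regulators had a part in the levels of the ribosomal genes was not tested.

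**Figure D4:**
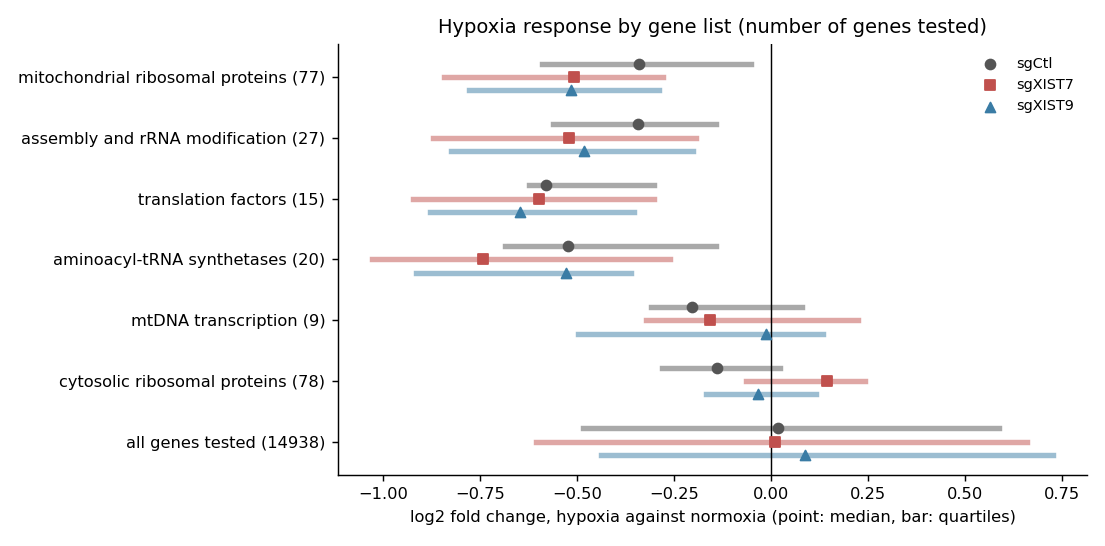
For each gene list (vertical axis, with the number of genes tested) the median log2 fold change in hypoxia against normoxia (points, horizontal axis) and its quartiles (bars) are shown for sgCtl, sgXIST7 and sgXIST9. The medians of the mitochondrial ribosomal, assembly, translation factor and synthetase lists lie between -0.34 and -0.74, and those of all genes tested between 0.01 and 0.09.

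Whether the response to hypoxia differed between clones was tested with interaction terms, both of which use the sgCtl libraries. Against sgCtl, sgXIST7 had 2 members with a lower and 0 with a higher response (background 4.79% and 4.6% of all genes), with a median difference of -0.17. They were MRPL4 and MRPL16, both large subunit proteins with a bacterial counterpart. MRPL4 was at 40.3, 39.4 and 38.6 CPM and 34.1, 45.2 and 24.5 CPM in normoxia and hypoxia in sgCtl, where the groups overlapped, and at 44.3, 46.5 and 43.2 CPM and 24.3, 16.9 and 18.04 CPM in sgXIST7, where they did not. MRPL16 went from 50.05, 40.6 and 51.8 to 33.6, 37.02 and 30.3 CPM in sgCtl and from 55.4, 46.8 and 51.02 to 27.3, 21.5 and 17.3 CPM in sgXIST7. In sgXIST9, 0 members had a lower and 0 a higher response (edgeR, against 2.1% and 3.17% of all genes), 13 had an unadjusted p under 0.05, DESeq2 called 8, and the median difference was -0.22. These counts depended on 1 group of libraries, and so did those of all genes. Without the hypoxia replicate 3 libraries, 16 members had a lower and 2 a higher response in sgXIST7, where 13.9% and 15.6% of all genes did, and 9 a lower and 1 a higher response in sgXIST9, where 8.7% and 12% did. Lower in both were MRPS2 (differences of -0.94 and -0.77), MRPS11 (-0.97 and -0.89) and MRPL4 (-1.12 and -0.76), among others. Leaving out the sgCtl hypoxia replicate 3 library alone gave 16 and 10 calls, whereas 0 calls were left in sgXIST7 (edgeR) without any 1 of 9 other libraries. These counts, the 8 calls of DESeq2 and the later counts with 1 library left out stand without the share of all genes in the same fit. The same holds for the 13 members with an unadjusted p under 0.05, and none of these is read as particular to the members.

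To ask what the KD clones did before hypoxia, each was compared with sgCtl in normoxia, and the results of both share the sgCtl libraries. In sgXIST7, 10 members were lower and 2 higher, where 10.5% and 11.1% of all genes were, and the median was -0.06, beside -0.01 over all genes. In sgXIST9, 3 were lower and 10 higher, against 11% and 10.5% of all genes, with a median of 0.15 beside -0.02. None of them met the threshold of an adjusted p under 0.01 with a change of more than 1 on the log2 scale. The share of all genes that met it is not given here, so this is not read as particular to the members. Without the hypoxia replicate 3 libraries, 16 members were lower and 6 higher in sgXIST7, against 16.5% and 16.0% of all genes, and 4 lower and 19 higher in sgXIST9, against 17% and 15.3%. Those libraries enter these comparisons only through the filter, the TMM factors, the shared estimate of the spread and the adjustment over genes. In sgXIST7, 5 calls were left without sgCtl normoxia replicate 1 or 3 and 6 without sgXIST7 normoxia replicate 2. In sgXIST9, 7 were left without sgXIST9 normoxia replicate 3, and 8 without its replicate 1 or 2 or without sgCtl normoxia replicate 2.

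MRPS33, a small subunit protein without a bacterial counterpart, had the largest fall in sgXIST7. It was at 36.2, 27.2 and 34.8 CPM in sgCtl, 16.8, 13.9 and 18.8 CPM in sgXIST7 and 38.8, 44.4 and 42.1 CPM in sgXIST9, so that the sgXIST7 libraries lay below all others and those of sgXIST9 above sgCtl. The log2 fold change was -0.99 ± 0.15 in sgXIST7 (SE, adjusted p = 7.8e-05, edgeR) and 0.35 in sgXIST9 (adjusted p = 0.095). MRPS14, a small subunit protein with a bacterial counterpart, was at 45.2, 44.7 and 53.3 CPM in sgCtl, 38.5, 32.8 and 39.9 CPM in sgXIST7 and 67.1, 65.3 and 67.7 CPM in sgXIST9. It was the 1 member called in opposite directions in the KD clones in normoxia (-0.36 ± 0.12 and 0.48 ± 0.12), and its call in sgXIST7 was lost without sgCtl normoxia replicate 3 (adjusted p = 0.2).

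Both KD clones called 3 members lower in normoxia, MRPS9, MRPL30 and MRPS5, all with bacterial counterparts. MRPS9 was at 92.7, 74.1 and 87.1 CPM in sgCtl, 52.7, 41.9 and 48.01 CPM in sgXIST7 and 53.5, 47.2 and 55.1 CPM in sgXIST9, with log2 fold changes of -0.83 ± 0.11 and -0.70 ± 0.11. MRPL30 and MRPS5 had -0.66 and -0.43 in sgXIST7 and -0.39 and -0.33 in sgXIST9, where their calls were lost without sgCtl normoxia replicate 3 (adjusted p = 0.1 and 0.18). MRPL44, which resembles RNase III and binds the large subunit RNA, fell in sgXIST7 (-0.64 ± 0.15, adjusted p = 0.0052) and had a log2 fold change of -0.14 in sgXIST9 (adjusted p = 0.57). The shared rise was that of MRPS34 (0.48 and 0.70), called in sgXIST7 at an adjusted p of 0.049 that reached 0.15 without sgXIST7 normoxia replicate 1. In sgXIST9 the largest rise among called members was that of MRPL48, from 13.3, 13.7 and 15.5 to 25.04, 23.00 and 25.4 CPM (0.79 ± 0.16, adjusted p = 0.0019), followed by MRPS34 and MRPL53 (0.62). MRPS6 (0.76, adjusted p = 0.051) and MRPS24 (0.66, adjusted p = 0.35) did not pass the test.

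Several of these members lie close to each other, so the other tested genes within 5 Mb on either side (hg38 positions of the table) were read in the same comparisons. MRPS5 (chr2:95085371-95121808), MRPL30 (chr2:99181184-99199561) and MRPS9 (chr2:105038069-105099960) share 1 region of chromosome 2. Around MRPS5, 46 of 49 neighbours had a negative log2 fold change in sgXIST7 and 43 in sgXIST9, with medians of -0.54 and -0.59. The medians were -0.53 and -0.60 over 66 neighbours of MRPL30 and -0.50 and -0.56 over 34 neighbours of MRPS9, sets that overlap. Around MRPS33 (chr7:141002610-141014952), 34 of 36 neighbours were negative in sgXIST7, with a median of -0.92, beside a median of 0.09 in sgXIST9. MRPS31 (chr13:40729128-40771190), higher in sgXIST7 (0.48, adjusted p = 0.033), had neighbours with a median of 0.42 in sgXIST7, 36 of 42 of them positive, and of -0.23 in sgXIST9. MRPS14 (chr1:175012958-175023455) stood in no such region, with medians of -0.01 and -0.01 over 55 neighbours, and neither did MRPL48 (-0.09 in sgXIST9) or MRPS34 (0.03). Over all 77 members these neighbour medians lay between -0.92 and 0.42 in sgXIST7, and between -0.60 and 0.26 in sgXIST9. The part of the region in the change of each member was not tested.

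**Figure D5:**
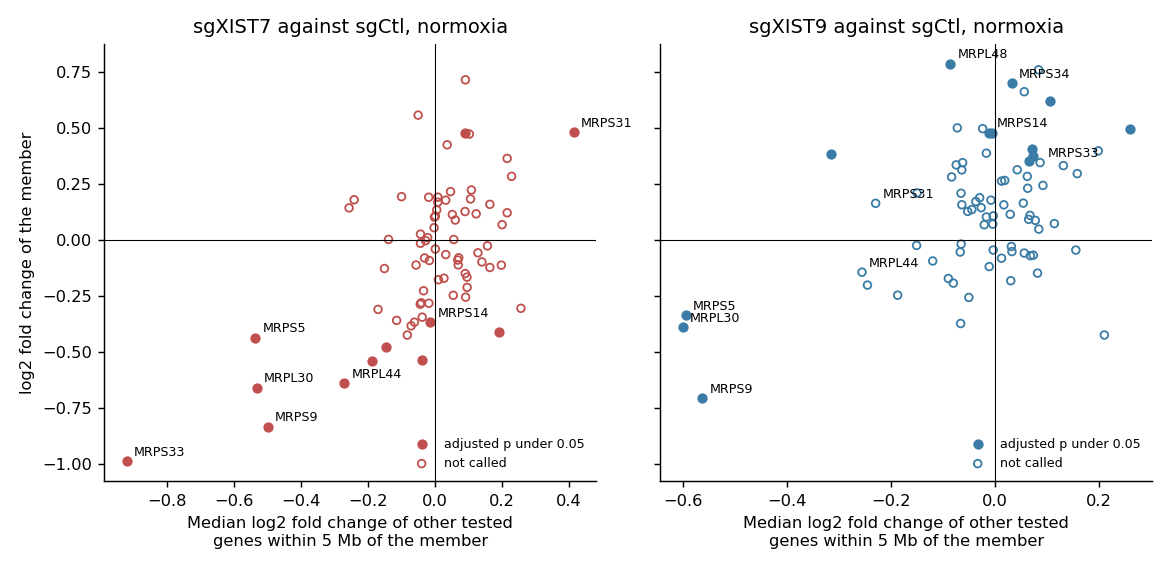
Each point is 1 member in normoxia, with the median log2 fold change of the other tested genes within 5 Mb (horizontal axis) and its own log2 fold change (vertical axis) in sgXIST7 (left) and sgXIST9 (right) against sgCtl, filled where the adjusted p was under 0.05. MRPS5, MRPL30 and MRPS9 lie low on both axes in both clones, and MRPS33 in sgXIST7.

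The KD clones were also compared with sgCtl in hypoxia, with the sgCtl hypoxia libraries shared. In sgXIST7, 29 members were lower and 4 higher, where 21.6% and 20.7% of all genes were, with a median of -0.29. In sgXIST9, 10 were lower and 5 higher, against 14.1% and 15.5%, with a median of -0.05. Without the hypoxia replicate 3 libraries, sgXIST7 had 38 lower and 8 higher, against 25.1% and 25.7% of all genes, and sgXIST9 14 lower and 6 higher, against 18.1% and 20.8%. Leaving out sgCtl hypoxia replicate 3 alone gave 27 calls in sgXIST9, and leaving out sgXIST7 hypoxia replicate 2 left 21 in sgXIST7. MRPS33 was again the lowest in sgXIST7, at 15.5, 13.3 and 11.4 CPM beside 33.1, 32.2 and 29.6 CPM in sgCtl (-1.23 ± 0.15), and was higher in sgXIST9 (0.40, adjusted p = 0.042, and 0.14 without sgXIST9 hypoxia replicate 2). Of the members lower in normoxia, MRPS9 (-0.82 and -0.86), MRPL30 (-0.96 and -0.71) and MRPS5 (-0.62 and -0.76) were lower in both clones in hypoxia as well, and kept these calls in each of the 26 alternative fits. Changes called in sgXIST7 included falls of MRPL44 (-0.90), MRPL32 (-0.86) and MRPL4 (-0.81) and rises of MRPL33 (0.75) and MRPS31 (0.70). In sgXIST9, MRPS34 (0.91) and MRPS14 (0.69) were the largest rises among called members, and MRPS36 (0.76, adjusted p = 0.11) did not pass the test.

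Set directly against each other in normoxia, the KD clones differed in 6 members that were lower in sgXIST7 (edgeR, where 3.66% of all genes were), and 0 were higher (where 5.22% were). Of the 77 members, 70 had a negative log2 fold change, and the median was -0.19 beside 0.01 over all genes. MRPS33 (-1.33 ± 0.15, adjusted p = 6.8e-06) and MRPS14 (-0.85 ± 0.12, adjusted p = 1.2e-04) kept their calls in each of the 26 alternative fits. MRPL42, MRPL53, MRPL44 and MRPL55 had log2 fold changes of -0.52, -0.50, -0.50 and -0.39, and each lost its call without sgXIST7 normoxia replicate 2 (adjusted p of 0.22, 0.13, 0.21 and 0.15). That library had the lowest summed level of the mitochondrial ribosomal genes in normoxia, 3872 CPM, against 4742 and 4597 CPM in the other sgXIST7 libraries, and 2 calls were left without it. The same number was left without sgXIST7 normoxia replicate 3 or any 1 of the sgXIST9 normoxia libraries, 3 without sgXIST7 normoxia replicate 1, and 11 members, all lower, were called without the hypoxia replicate 3 libraries, where 7.68% and 9.66% of all genes were lower and higher.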

How the data were processed

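RNA-seq was made from 18 libraries of OVCAR3-KRAB cells. Per the authors' methods and the submitters' processing notes, total RNA was depleted of ribosomal RNA (TruSeq Stranded Total RNA, Ribo-Zero Gold), sequenced paired-end, trimmed with Trimmomatic, checked with FastQC, aligned to hg38 with HISAT2 and counted per gene with featureCounts, after which the authors used DESeq2. Tool versions and the strand setting of the counting are not given in the sources used here. The deposited values are raw counts per gene and library, not normalized, and 2 broken lines with 0 counts were left out. Totals ran from 11794375 to 24906936 counts (median 17629433.5), and limits of 3 counts cover counting error only.

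Groups came from the sample labels. The replicates are labelled biological, and p-values measure the spread between these libraries. Genes were kept with filterByExpr (minimum count 10, minimum total 15), which left 14938, and tested in R 4.3.3 with the robust quasi-likelihood test of edgeR 4.0.16 (limma 3.58.1) on all 18 libraries in 6 groups, with TMM factors, a prior count of 0.125 and Benjamini-Hochberg adjustment over all genes tested. A member was called at an adjusted p under 0.05, and the stricter rule was an adjusted p under 0.01 with a log2 fold change beyond 1. The fit was tested on simulated data. No pair of replicates agreed within sampling noise (chi-square per degree of freedom of at least 3.98).

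The members and gene lists were chosen with earlier results of these data known. Named were up to 6 called members per direction and comparison with the largest changes, members fixed for their role, the 4 highest and 4 lowest levels per kilobase, members that failed the filter, and up to 4 called genes of each other list; the text gives a selection of these. Promoters are those of the called members with the lowest and highest change in sgCtl off chromosome 8 and of fixed members, with MRPS12 left out because its row starts elsewhere than in RefSeq. Protein sequences were not used here. Alternatives were other normalizations, filters and thresholds, DESeq2 1.42.0, a replicate block, only the groups compared, and each library, or the hypoxia replicate 3 libraries, left out.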

Additional observations from a re-analysis of the deposited data

Results flagged for a closer look

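Among the 77 members tested, the response to hypoxia differed between sgXIST7 and sgCtl for MRPL4 and MRPL16 in the interaction term (edgeR). For MRPL4 the difference of the log2 fold changes was -0.99 ± 0.28 (SE, adjusted p = 0.035), from -0.18 in sgCtl and -1.17 in sgXIST7. For MRPL16 it was -0.71 ± 0.20 (adjusted p = 0.04), from -0.50 and -1.21. The call of MRPL4 was lost in 11 of 26 alternative fits, with the highest adjusted p among left-out libraries, 0.1, without sgCtl hypoxia replicate 2. That of MRPL16 was lost in 15, with 0.1 without sgCtl hypoxia replicate 2.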

How the results depend on the processing

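In hypoxia against normoxia, the counts of members called stayed within 1.5 times of the counts given above under each alternative but the stricter threshold (adjusted p under 0.01 with a log2 fold change beyond 1), which left 5, 15 and 10 in sgCtl, sgXIST7 and sgXIST9. That threshold left 0 in both comparisons with sgCtl in normoxia (12 and 13 called), 1 for sgXIST7 and 0 for sgXIST9 against sgCtl in hypoxia (33 and 15), 1 for sgXIST7 against sgXIST9 (6) and 0 for the response difference of sgXIST7 (2). An adjusted p under 0.01 alone left 4, 7, 19, 9, 2 and 0 in the same order. With only the groups compared in the fit, 39 members were called for sgXIST9 in normoxia, 13 and 6 for sgXIST7 and sgXIST9 in hypoxia, 15 between the KD clones and 0 for the response difference of sgXIST7. For the response differences, DESeq2 called 4 and 8, no filter beyond 1 count left 1 in sgXIST7, and median-of-ratios factors gave 2 in sgXIST9. With libraries left out, counts ran from 5 to 22 and from 7 to 23 in normoxia, from 21 to 46 and from 11 to 27 in hypoxia, from 2 to 11 between the KD clones, and from 0 to 18 and from 0 to 10 for the response differences of sgXIST7 and sgXIST9. Apart from the fit without the hypoxia replicate 3 libraries, these counts stand without the share of all genes called in the same fit. Their moves are therefore not read as particular to the members. The median of the members in sgXIST7 in normoxia ran from -0.14 to 0.034, and was above 0 without sgXIST7 normoxia replicate 2. The cause was not tested. DESeq2 called 5 higher and 11 lower there. For hypoxia against normoxia in sgXIST9, upper-quartile factors moved the median of all genes from 0.09 to 0.17, with 1 member higher and 43 lower. No named result reversed: of 69, 46 kept their call in each alternative fit.

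Same-numbered libraries were not taken as pairs, since not every pair correlated above 0.1: deviations of the 45 same-numbered pairs ran from r = -0.073 to 0.566, with 15 above 0.1. The numbers did carry a shared signal, as the best match had the same number in 49 of 90 cases, where unrelated numbers would give 30, and all 3 pairs lay above 0.1 between sgCtl and sgXIST7 in normoxia (0.148 to 0.379) and between sgCtl and sgXIST9 in hypoxia (0.197 to 0.566). With the replicate block, 17 and 16 members were called in those comparisons (12 and 15 without), 4 and 1 for the response differences of sgXIST7 and sgXIST9, and no other count of calls moved by over 1.5 times.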
